A study of Mus musculus with 2 samples.

Results

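Cells that carried Cd209a, a C-type lectin, together with MHC class II genes formed a small population among the CD45+ leukocytes of the mouse adrenal gland. They were picked from 2 droplet libraries, 1 of female and 1 of male C57BL/6 mice aged 7 weeks, made from adrenal cells that were sorted as alive and CD45+. The labels name no transgene and no treatment. The number of animals behind each library is not stated. A cell entered by its own counts of unique molecular identifiers (UMIs, each standing for 1 captured transcript): at least 2 UMIs of Cd209a, Clec10a and Flt3 together with at least 1 of Cd209a, at least 3 of H2-Ab1, at most 2 of C1qa, C1qb and C1qc together, fewer than 5 of Retnla, at most 1 of Xcr1 and Clec9a together, and 0 of Cd79a and of Cd3e. Of the barcodes with at least 200 genes and at most 15% mitochondrial UMIs, 80 of 3817 in the female and 52 of 2502 in the male library met these criteria, which is 132 of 6319 in all. They are called Cd209a+ DCs here. They were set against Xcr1+ DCs (at least 2 UMIs of Xcr1 and Clec9a together, 18 female and 14 male cells) and against C1q+ macrophages (at least 5 UMIs of the C1q genes, 842 and 851 cells). Xcr1+ DCs also had to meet the limits above on H2-Ab1, C1q, Cd79a and Cd3e. C1q+ macrophages also had to meet those on Xcr1 and Clec9a, Cd79a and Cd3e.

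Dendritic cells (DCs) take up material in tissues, process it and show it to T cells on MHC molecules. The type 1 lineage depends on the transcription factors Irf8 and Batf3, carries Xcr1 and Clec9a, and is known for loading material from dead cells onto MHC class I. The type 2 lineage is marked by Sirpa, the integrin chain Itgam (CD11b) and galactose-binding lectins such as Mgl2 and Clec10a, depends in part on Irf4 and Klf4, and is known for priming helper T cells through MHC class II. Cd209a is a mouse relative of the human lectin DC-SIGN and is found on type 2 DCs and on cells that arise from monocytes.

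The female library held 16218309 UMIs in 3963 barcodes and the male library 9512670 in 2685. Cd209a+ DCs contributed 372665 and 256379 UMIs, with a median of 4332 UMIs per female and 4775 per male cell (range 770 to 15657 and 658 to 11083), against 5914.5 and 6029.5 in Xcr1+ DCs and 3701.5 and 2658 in C1q+ macrophages. Their median mitochondrial share was 1.58% and 1.14%, below the 3.27% and 2.86% of all kept barcodes. The libraries shared 2 barcodes, none of them in a Cd209a+ DC. Doublets were scored but kept in, and leaving out the barcodes of highest doublet score removed 1 female and 0 male Cd209a+ DCs. Xist gave 281 UMIs in the female and 0 in the male Cd209a+ DCs, and Ddx3y, Eif2s3y, Kdm5d and Uty gave 0 UMIs in the female and 5, 4, 3 and 4 in the male cells.

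Cd209a+ DCs made up 2.10% of the female barcodes (exact 95% binomial interval 1.67 to 2.60%) and 2.08% of the male barcodes (1.56 to 2.72%). The difference of 0.0176 percentage points, female minus male, had an interval of -0.739 to 0.721 points, and all intervals given here cover counting error only. When every cell was first thinned to 1000 UMIs, which dropped shallower cells, the same criteria held for 35 of 3624 female cells (0.966%, 0.674 to 1.34%) and 41 of 2260 male cells (1.81%, 1.31 to 2.45%), and the difference became -0.848 points (-1.54 to -0.244). The sum of Cd209a, Clec10a and Flt3 had a median of 6 in female and 8.5 in male Cd209a+ DCs, and it stood at exactly 2 in 9 female and 1 male cell.

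The genes of the criteria are given as a description. Cd209a stood at 1363 CPM (the gene's UMIs as a share of all UMIs of the class, on the usual CPM scale) in the female and 1814 CPM in the male Cd209a+ DCs, with 1 to 29 UMIs per female cell (median 5) and 1 to 36 per male cell (median 6). Clec10a, a galactose-binding lectin like Mgl2, stood at 236 and 312 CPM and had a UMI in 39 of 80 female and 27 of 52 male cells. Flt3, the receptor of the cytokine on which DCs depend, stood at 96.6 and 109 CPM, from 26 and 22 cells. H2-Ab1, an MHC class II chain, stood at 7548 and 9357 CPM. Cd209a, Clec10a and Flt3 were seen together in 24 of the 132 cells, and 42 cells entered on Cd209a alone. After thinning to 1000 UMIs, 74.4% of female and 82.0% of male Cd209a+ DCs had a Cd209a UMI, against 0.149% and 0% of T cells, which should lack it and had a median of 4048 and 3991 UMIs. For Clec10a these shares were 23.1% and 20.0% against 0.149% and 0%, and for Flt3 12.8% and 22.0% against 0% and 0%. The criteria counted UMIs of these 3 genes, so the shares in Cd209a+ DCs are tied to the choice of cells. At the edges, 13 barcodes failed only on the sum of the 3 genes, 10 only on Cd209a, 10 only on H2-Ab1, 23 only on C1q, 22 only on Retnla, 1 only on Xcr1 and Clec9a, 6 only on Cd79a and 3 only on Cd3e. Just inside, 9 cells held exactly 1 Cd209a UMI, and C1q was at 0, 1 and 2 UMIs in 99, 23 and 10 cells.

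A further pair of genes, Tnni2 (a fast muscle troponin subunit) and Olfm1 (a secreted olfactomedin glycoprotein), had been proposed as markers of these cells. Olfm1 stood at 352 and 386 CPM in Cd209a+ DCs, 209 and 299 CPM in Xcr1+ DCs and 31.5 and 41.4 CPM in C1q+ macrophages. Tnni2 stood at 207 and 66.3 CPM, 288 and 410.3 CPM, and 23.0 and 19.5 CPM in the same order. Both were higher than in macrophages, with log2 fold changes of 3.53 ± 0.21 (SE; edgeR quasi-likelihood test, adjusted p = 6.38e-18) and 2.89 ± 0.32 (adjusted p = 5.80e-09). Neither set Cd209a+ DCs above Xcr1+ DCs: Tnni2 was lower by 1.40 on the log2 scale than in Xcr1+ DCs (SE 0.34, adjusted p = 7.02e-03; 6.29e-02 under a mitochondrial ceiling of 5% and 0.145 with no library block), and the Olfm1 difference of 0.46 ± 0.26 was not called (adjusted p = 0.362). Both kinds of DC thus stood above the macrophages in these genes. Type 2 and type 1 markers outside the criteria were read next.

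**Figure D1:**
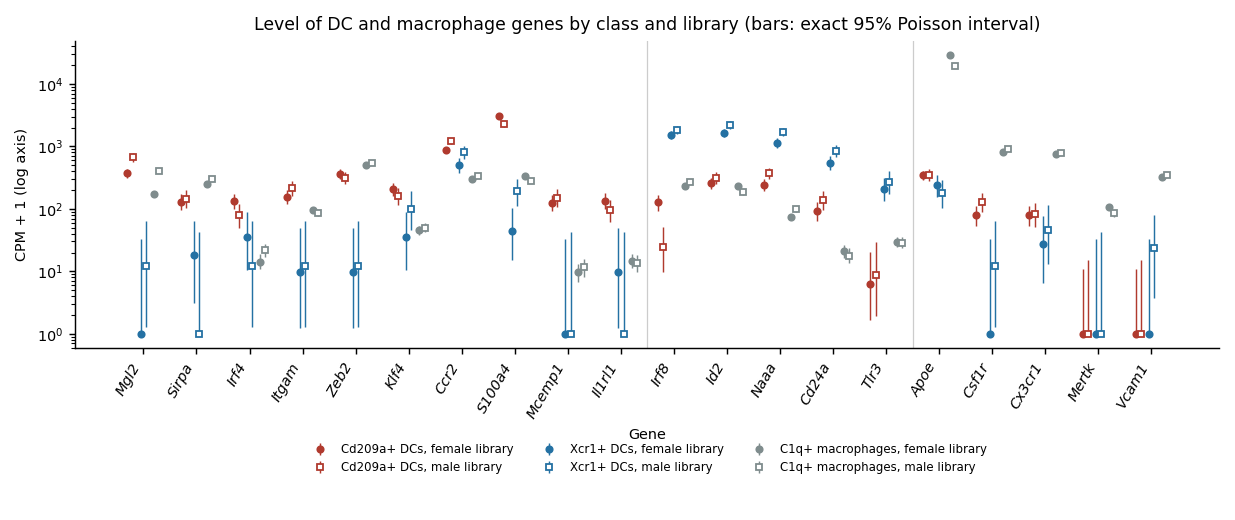
Level of DC and macrophage genes in each class and library, as CPM + 1 on a log axis, with exact 95% Poisson intervals as bars. Filled circles are the female and open squares the male library, and type 2 DC genes and genes raised in Cd209a+ DCs stand on the left, type 1 genes in the middle and macrophage genes on the right. Mgl2 lies at 370.3 and 667 CPM in Cd209a+ DCs and at 0 and 11.1 CPM in Xcr1+ DCs, and Irf8 shows the opposite order.

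The first comparison asked how Cd209a+ DCs differed from Xcr1+ DCs. Of the type 2 DC markers 7 of 12 were higher, and of the type 1 DC markers 9 of 10 were lower. Of 4804 genes tested on UMIs summed per library and class, 160 were higher (3.33%) and 123 lower (2.56%) in Cd209a+ DCs, where a call needed an adjusted p under 0.05 and a fitted fold of 2 or more. The libraries also differ in sex, so the p-values measure only the spread between these 2 libraries. All 160 and all 123 had the called direction in each library, on log2(CPM + 10), and 144 and 98 of them were 2-fold or more apart in both. Of 12 general type 2 DC markers, 7 were higher and 0 lower, with a median log2 fold change of 1.74 against 0.05 over all genes tested. Of 10 type 1 markers outside the criteria, 9 were lower and 0 higher, with a median of -4.60, or -4.08 with the 2 genes at 0 UMIs set to their bound. The classes were split on Xcr1 and Clec9a, so genes expressed together with them are tied to the choice. The same holds for genes expressed together with Cd209a. Xcr1+ DCs were few, and many genes stood at 0 in them, for which the fold is given as a lower bound against 3 UMIs over both libraries.

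**Figure D2:**
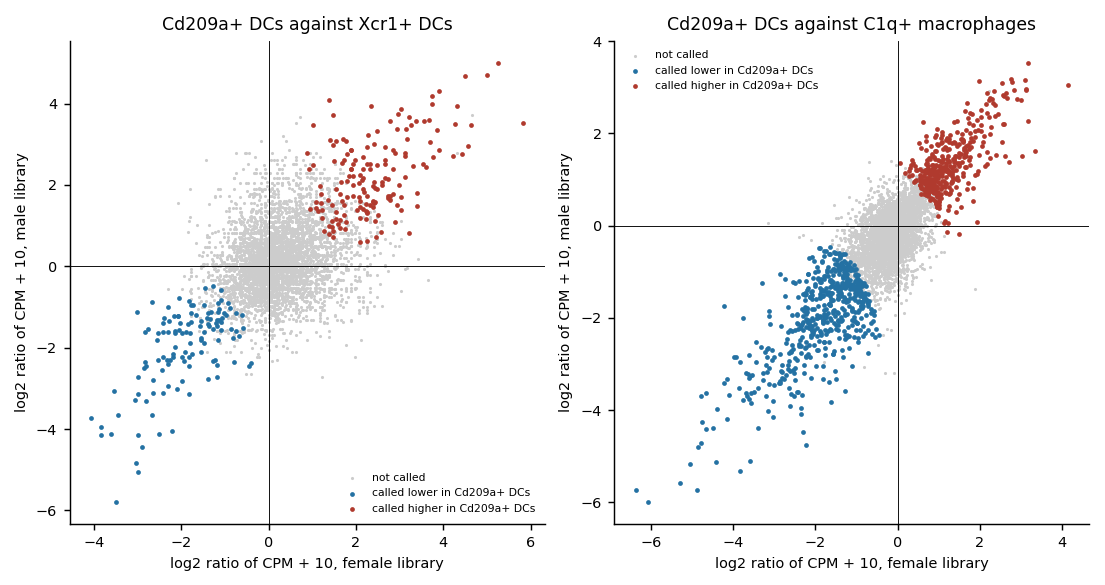
Log2 ratio of CPM + 10 in the female library (horizontal axis) against the male library (vertical axis), 1 point per gene tested, with called genes in colour. Against Xcr1+ DCs the 160 higher and 123 lower genes lie in the quadrants of their direction, and against C1q+ macrophages 389 of the 391 higher and all 566 lower genes do.

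Mgl2, which encodes a galactose-binding lectin, had the largest ratio to Xcr1+ DCs among the type 2 markers. It gave 138 UMIs in female and 171 in male Cd209a+ DCs, 0 and 1 UMI in Xcr1+ DCs, a ratio of 100.7 (exact 95% interval 17.9 to 3989; edgeR adjusted p = 1.18e-11, and 9.11e-02 with no term for the library). Zeb2, a zinc finger repressor required in the myeloid branch of DCs, stood at 362 and 316 CPM against 8.71 and 11.1 CPM, a ratio of 35.2 (9.62 to 292). Itgam stood at 156 and 211 CPM against 8.71 and 11.1 CPM (ratio 18.3, 4.93 to 153), and Sirpa, the inhibitory receptor for CD47, at 129 and 144 CPM against 17.4 and 0 CPM (13.9, 3.72 to 116). Like 144 of the 160 genes called higher, these 4 were 2-fold or more apart in both libraries. After thinning, 30.8% and 40.0% of Cd209a+ DCs had an Mgl2 UMI, against 0.446% and 0.592% of T cells. Klf4 stood at 204 and 159.9 CPM against 34.9 and 99.8 CPM, a log2 fold change of 1.44 ± 0.43 (adjusted p = 3.17e-02). Irf4, the factor most tied to the type 2 lineage, stood at 132 and 78.0 CPM against 34.9 and 11.1 CPM, and its log2 fold change of 2.04 ± 0.66 was close to the threshold (adjusted p = 4.81e-02). It lost its call in 8 of 13 settings, with adjusted p-values from 5.32e-02 to 0.247. Without the 2 cells with at least 2 UMIs of plasmacytoid DC markers, its log2 fold change was 2.06 (edgeR adjusted p = 5.35e-02). With C1q at 0 it was 1.67 (edgeR adjusted p = 0.233). The TNF-response gene Tnip3 gave 65 UMIs against 3 (ratio 7.06, 2.31 to 35.1, adjusted p = 2.04e-02). Ccr2, the chemokine receptor by which monocytes leave the marrow, differed by a log2 fold change of 0.62 ± 0.18 that passed the test (adjusted p = 2.12e-02) but not the fold, and Itgax, Clec12a, Ltb and Zbtb46 were not called. Irf4, Klf4 and Tnip3 lost their call under DESeq2 (adjusted p = 0.247, 0.158 and 0.101).

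The type 1 DC markers and other genes of that lineage came next. Id2, a repressor needed by type 1 DCs, stood at 258 and 312 CPM in Cd209a+ DCs and at 1656 and 2218 CPM in Xcr1+ DCs, a log2 fold change of -2.86 ± 0.18 (edgeR adjusted p = 8.33e-16). Irf8 stood at 126 and 23.4 CPM against 1516 and 1830 CPM (-4.43 ± 0.49, adjusted p = 6.78e-03, and 0.141 when the limit on Retnla was dropped), and 91.5% of its female UMIs in Cd209a+ DCs lay in 5 cells. Tlr3, the sensor of viral RNA, gave 2 UMIs in each library against 24 in each (-5.28 ± 0.55, adjusted p = 1.04e-09). Cd24a (-2.70 ± 0.27), Naaa (-2.32 ± 0.19), Wdfy4, which is needed for cross-presentation (-2.54 ± 0.29), and the adhesion gene Cadm1 (-4.90 ± 0.53) were lower as well. Gcsam and Snx22 gave 0 UMIs in Cd209a+ DCs, at least 23.5-fold and 13.3-fold lower, and with DESeq2 Gcsam was not called (adjusted p = 0.371) and Snx22 had no adjusted p. Batf3 was the member of this list that was not called, at 132 and 156 CPM against 183 and 222 CPM (-0.59 ± 0.32, adjusted p = 0.340). Ifi205, an interferon-inducible gene of the list, was lower by 4.76 on the log2 scale (SE 0.54). Outside the list, the lowest of the genes with at least 50 UMIs and a 2-fold difference in each library were Cxcl9, a chemokine for T cells (-4.60 ± 0.47), the lysosomal thioesterase Ppt1 (-4.20 ± 0.29), the retrotransposon-derived Rtl8b and Rtl8a (-4.33 ± 0.44 and -3.47 ± 0.36), Sept3 (-3.78 ± 0.50), the scavenger receptor Cd36 (-3.77 ± 0.34) and the tetraspanin Cd81 (-3.11 ± 0.33).

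Several receptors of myeloid cells were higher. Of 10 C-type lectin receptors tested, 6 were higher than in Xcr1+ DCs and 0 lower. Besides Mgl2 these were Clec4a3 (46 and 44 UMIs against 0 and 0, at least 9.77-fold), the mannose receptor Mrc1 (50 and 53 against 0 and 1), Clec4a1 (61 and 30 against 1 and 0), Clec4a2 (42 and 42 against 0 and 2) and Clec4b1 (86 and 85 against 3 and 6, log2 fold change 2.56 ± 0.41). Of 7 Fc receptor genes, which bind antibody or share the signalling chain, 4 were higher and 0 lower: Fcer1g (1787 and 1669 CPM against 322 and 554 CPM, 1.92 ± 0.16), the inhibitory Fcgr2b (258 and 316 against 52.3 and 133 CPM, 1.59 ± 0.35), Fcgr3 (43 UMIs against 2, ratio 7.01, 1.83 to 59.7, adjusted p = 4.66e-02) and Fcrls (63 against 0, at least 6.84-fold). Fcgr3 lost its call in 7 of 13 settings (adjusted p from 5.02e-02 to 0.744), while Fcer1g kept its call in all 13 and Fcrls in all but thinned sums, where it was not tested. Of 15 scavenger and efferocytosis genes, 4 were higher, namely the haemoglobin receptor Cd163 (at least 5.43-fold), Lrp1 (at least 6.73-fold), Mrc1 and Cd300a, and 2 were lower, Cd36 and the phosphatidylserine receptor Timd4 (0 UMIs, at least 15.4-fold lower). The endocytic adaptor Dab2 (68 UMIs against 0, at least 7.39-fold), the phospholipid transfer protein Pltp (253 against 1, ratio 82.4, 14.7 to 3269), the ion channel Tmem176a (290 against 2, 47.2, 12.96 to 392), the lysosomal protease Ctsa (146 against 1, 47.6, 8.41 to 1892) and Mcemp1 (84 against 0, at least 9.12-fold) were among the 12 highest genes.

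Several of these genes are also expressed by macrophages. Of 14 macrophage markers other than C1q, 3 were higher than in Xcr1+ DCs, among them Mrc1 and Csf1r, and 0 lower, and Mertk gave 0 UMIs in either class. The 14 markers summed to 3236 and 3351 CPM in Cd209a+ DCs, 1551 and 1974 CPM in Xcr1+ DCs, and 44540 and 32230 CPM in C1q+ macrophages. Apoe, the most abundant of them in macrophages, had a UMI in 29.5% and 24.0% of thinned Cd209a+ DCs and in 17.4% and 18.9% of thinned T cells of the same libraries, a cell type taken to lack it. In the 99 cells with 0 C1q UMIs, Mrc1, Csf1r, Cd163, Lrp1, Fcrls and Dab2 were again higher than in Xcr1+ DCs. Of 6 monocyte markers tested, F13a1 (20 UMIs against 0, at least 2.17-fold) and Cd14 (26 against 0, at least 2.82-fold) were called higher, and Ly6c2 and Plac8 were not called. F13a1 lost its call in 9 of 13 settings and Cd14 in 4, DESeq2 among them for both (adjusted p = 0.125 and 7.12e-02). All 12 monocyte markers summed to 1374 and 659 CPM in Cd209a+ DCs, 680 and 277 CPM in Xcr1+ DCs, and 1260 and 1242 CPM in macrophages. At least 3 of their UMIs were found in 31.2% and 26.9% of Cd209a+ DCs, and in 50% and 28.6% of Xcr1+ DCs. Whether Cd209a+ DCs arose from monocytes was not tested.

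**Figure D3:**
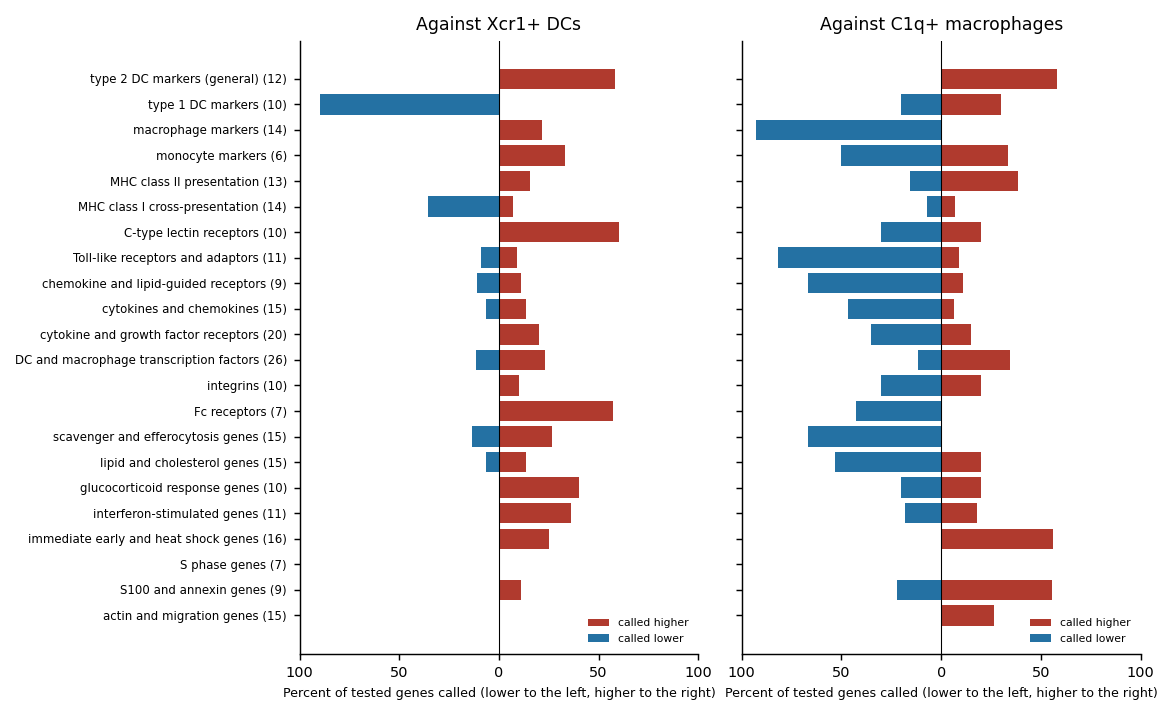
Percent of the tested genes of each list that were called higher (right) or lower (left) in Cd209a+ DCs, against Xcr1+ DCs and against C1q+ macrophages, with the number tested in brackets. Among the lists drawn, those with at least 5 tested genes, type 1 DC markers stand lowest against Xcr1+ DCs (9 of 10 lower), and macrophage markers against C1q+ macrophages (13 of 14 lower).

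Antigen presentation genes were read by pathway. Of 13 MHC class II presentation genes other than H2-Ab1, which chose the cells, 2 were higher than in Xcr1+ DCs and 0 lower, and these were the proteases Ctss (log2 fold change 1.13 ± 0.18, edgeR adjusted p = 1.45e-05) and Lgmn (45 UMIs against 2, ratio 7.33, 1.92 to 62.4). H2-Aa stood at 9191 and 10940 CPM against 7554 and 8649 CPM (0.21 ± 0.10), and Cd74, the invariant chain, at 19310 and 23330 against 16040 and 16200 CPM (0.29 ± 0.16), and neither was called. Of 14 genes of MHC class I and cross-presentation, 5 were lower: the immunoproteasome subunits Psmb9 (-1.99 ± 0.24) and Psmb8 (-1.04 ± 0.19), the proteasome activator Psme1 (-1.27 ± 0.19), Rab43 (-1.39 ± 0.32) and Wdfy4. The NADPH oxidase subunit Cybb was higher, at 521 and 351 CPM against 17.4 and 22.2 CPM (4.39 ± 0.43, adjusted p = 1.43e-10). Of 3 costimulatory genes tested, Cd86 gave 5 UMIs against 29 (-4.23 ± 0.60) and Cd83 17 against 25 (-2.24 ± 0.49), and both were lower. None of the 9 genes of mature migratory DCs reached the filter. Ccr7, the receptor that leads DCs to lymph nodes, gave 0 UMIs in the 132 cells, and Ccl22 gave 0 against 13 UMIs in the female Xcr1+ DCs.

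Transcription factors, interferon-stimulated genes and chemokines followed. Of 26 transcription factors tested, 6 were higher (Irf4, Klf4, Zeb2, Tcf4, Cebpa and Cebpb) and 3 lower (Irf8, Id2 and Zfp366). Of the 6, Zeb2 alone kept its call in all 13 settings that were refitted. Tcf4, also a factor of plasmacytoid DCs, stood at a log2 fold change of 1.88. Without the 2 plasmacytoid-marked cells, which include a cell with NK transcripts, Tcf4 stood at 1.39 with no call (edgeR adjusted p = 9.42e-02). It lost its call in 4 other settings as well, DESeq2 among them (adjusted p = 0.129). Cebpb stood at 115 and 156 CPM against 34.9 and 11.1 CPM, with 76.7% and 87.5% of its UMIs in 5 cells of each library, and its call ended among cells with 0 C1q UMIs (adjusted p = 0.185). Of 11 interferon-stimulated genes, 4 were higher and 0 lower: Ifitm3 (2745 and 2449 CPM against 593 and 688 CPM, 1.93 ± 0.14, edgeR adjusted p = 2.72e-14), Ifitm2 (2.17 ± 0.25), Ifi27l2a (1.21 ± 0.16) and Oasl2 (32 UMIs against 0, at least 3.48-fold). The chemokine Ccl9 stood at 531 and 624 CPM against 26.1 and 22.2 CPM (4.45 ± 0.39, adjusted p = 1.18e-11) and Ccl6 at 550.1 and 768 against 183 and 299 CPM (1.37 ± 0.22), 2 of 15 cytokines and chemokines tested, and Cxcl9 was the only lower gene of that list. Of 10 glucocorticoid response genes, named here because the adrenal cortex makes these steroids, 4 were higher and 0 lower: Tsc22d3 (1.15 ± 0.32), Dusp1 (1.33 ± 0.30), Klf4 and Mt1 (1.21 ± 0.24). Each of these 4 lost its call in at least 1 setting. Tsc22d3 lost it with DESeq2 (adjusted p = 9.57e-02), with no library block (9.61e-02) and in thinned sums, Klf4 in 4 settings, Mt1 in thinned sums (log2 fold change 0.54), and Dusp1 among cells with 0 C1q UMIs (0.80). Dusp1 and Klf4 are also counted among other lists.

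The second comparison set Cd209a+ DCs against the C1q+ macrophages, a far larger class. Here 391 of the 4804 genes were higher (8.14%) and 566 lower (11.8%), and 173 and 418 of them were 2-fold or more apart in both libraries. Of the 12 type 2 DC markers, 7 were higher and 0 lower (median log2 fold change 1.13, against -0.03 over all genes tested), and of the 14 macrophage markers 13 were lower and 0 higher (median -3.73). Of 6 monocyte markers, Plac8 (2.68 ± 0.20) and Ly6c2 (1.83 ± 0.35) were higher and F13a1 (-2.76 ± 0.31), Cd14 (-1.84 ± 0.31) and Fcgr4 (-3.76 ± 0.35) lower, and Ly6c2 lost its call with DESeq2 (adjusted p = 0.124) and, like Plac8, with no library block. Ly6c2 stood at 183 and 23.4 CPM against 40.4 and 21.5 CPM in macrophages, with 82.4% of its female UMIs in 5 cells. The macrophages were chosen for high C1q, so genes expressed together with C1q are tied to the choice.

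Among the genes higher than in macrophages, Bcl11a, a transcription factor of lymphoid and DC progenitors, stood at 172 and 97.5 CPM against 0.277 and 2.98 CPM, a log2 fold change of 6.60 ± 0.51 (edgeR adjusted p = 2.42e-12). Zbtb46, a factor that marks conventional DCs, gave 8 and 11 UMIs and stood at 21.5 and 42.9 CPM against 4.98 and 2.98 CPM (3.07 ± 0.59, adjusted p = 4.35e-05). Cbfa2t3, a corepressor, stood at 282 and 312 CPM against 26.6 and 38.4 CPM (3.39 ± 0.22). Irf4 (2.85 ± 0.35) and Klf4 (2.17 ± 0.25) were higher here too, and Mgl2 was higher by 1.07 ± 0.17. The Mgl2 difference was 0.52 on sums thinned to equal depth per cell, where it no longer passed the call (edgeR adjusted p = 0.071), and 0.96 with C1q at 0. Of 13 MHC class II presentation genes, 5 were higher. The modulators of peptide loading H2-Oa (4.41 ± 0.32, adjusted p = 5.02e-15), H2-Ob (3.72 ± 0.31) and H2-DMb2 (3.17 ± 0.29) led them, followed by the class II transactivator Ciita (1.08 ± 0.20) and Ifi30 (1.09 ± 0.31, with its call lost in 8 of 13 settings), while Ctss (-1.59 ± 0.12) and Lgmn (-3.69 ± 0.21) were lower than in macrophages. Other high genes were the enzymes Upb1 (4.97 ± 0.39) and Kmo of the kynurenine pathway (4.73 ± 0.44), the leukotriene B4 receptor Ltb4r1 (107 and 140.4 CPM against 6.92 and 7.28 CPM, 4.27 ± 0.37), the kinase Map4k1 (4.04 ± 0.35) and Hepacam2 (3.77 ± 0.39).

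Several genes of cell movement and of the cytoskeleton were higher than in macrophages. Ccr2 stood at 886 and 1233 CPM against 298 and 329 CPM (log2 fold change 1.91 ± 0.14, edgeR adjusted p = 7.26e-15) and had a UMI in 67 of 80 female and 46 of 52 male cells. It was the only higher gene among 9 chemokine and lipid-guided receptors, 6 of which were lower, among them Cx3cr1 (-3.08 ± 0.21). Itgb7, an integrin chain of cells that home to mucosa, was higher by 3.37 ± 0.26. Of 9 S100 and annexin genes, 5 were higher (S100a4, S100a10, S100a11, Anxa1 and Anxa2) and 2 lower (S100a9 and Anxa3). Of 15 actin and migration genes, Vim (2.99 ± 0.13), Tmsb10 (2.82 ± 0.14), Lsp1 (1.91 ± 0.12) and Actg1 (1.01 ± 0.10) were higher and 0 lower, and Actg1, just past 2-fold, lost its call in 8 of 13 settings. Of 16 immediate early and heat shock genes, 9 were higher and 0 lower, with a median of 1.22, and Fos stood at 456 and 741 CPM against 169.9 and 269.8 CPM (1.62 ± 0.17).

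On the other side stood the genes of resident macrophages. Vcam1, an adhesion molecule, gave 0 UMIs in Cd209a+ DCs and 2223 in macrophages, at least 70.2-fold lower. The iron exporter Slc40a1 (at least 35.6-fold), Tmem119 (at least 24.8-fold), Slco2b1 (at least 24.7-fold), Col14a1 (at least 20.8-fold), Itga9 (at least 20.6-fold), the efferocytosis receptor Mertk (at least 20.2-fold) and Itga6 (at least 17.7-fold) also gave 0 UMIs. Of 15 scavenger and efferocytosis genes, 10 were lower and 0 higher, among them Stab1 (-5.15 ± 0.34) and Axl (-3.29 ± 0.25). Apoe stood at 344 and 347 CPM against 29090 and 19120 CPM (-5.94 ± 0.12, edgeR adjusted p = 1.27e-31), and Maf, a transcription factor of macrophages, stood at -5.20 ± 0.31. Of 11 Toll-like receptor and adaptor genes 9 were lower, with Tlr7 at -3.40 ± 0.54, and Tlr11 was the only higher gene, from 12 UMIs. With DESeq2, Tlr1, Tlr2, Tlr3, Tlr4 and Ly96 lost their call as lower (adjusted p = 5.98e-02 to 0.385). Of 15 cytokines and chemokines 7 were lower, including Ccl4 (-3.75 ± 0.32) and Cxcl16 (-3.49 ± 0.26), and Ccl17 was higher, from 19 UMIs against 3 (ratio 66.8, 19.7 to 353), with a call that DESeq2 ended (adjusted p = 0.248). Mrc1, Zeb2 and Sirpa, higher than in Xcr1+ DCs, were not higher than in macrophages (-0.97 ± 0.20, -0.42 ± 0.17 and -0.83 ± 0.21).

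A set of 53 genes was higher in Cd209a+ DCs than in both other classes, and 34 were lower than in both. S100a4, a calcium-binding protein of motile cells, was the most abundant of the 12 chosen by the rule for named genes. It stood at 3038 and 2254 CPM in Cd209a+ DCs, 43.6 and 189 CPM in Xcr1+ DCs, and 337 and 280.4 CPM in macrophages. Its log2 fold changes were 4.51 ± 0.31 (edgeR adjusted p = 5.92e-07) and 3.27 ± 0.19 (adjusted p = 1.02e-08), and it had a UMI in 78 of 80 female and 50 of 52 male cells. Il1rl1, the IL-33 receptor, gave 50 and 24 UMIs against 1 and 0 in Xcr1+ DCs, a ratio of 24.1 (4.20 to 965), and stood at 134 and 93.6 CPM against 13.8 and 12.6 CPM in macrophages (3.28 ± 0.34). It was spread over 27 female and 15 male cells, and after thinning 20.5% and 10.0% of Cd209a+ DCs and 0.893% and 0.888% of T cells had a UMI. Il1rl1 is also a marker of type 2 innate lymphoid cells, and the 3 other markers of those cells (Gata3, Il7r and Rora) summed to 18 female and 2 male UMIs (48.3 and 7.80 CPM) in Cd209a+ DCs, with Gata3 at 0 in both libraries. Ifitm6 stood at 207 and 238 CPM against 8.71 and 33.3 CPM (3.40 ± 0.55) and against 29.9 and 36.4 CPM (2.93 ± 0.24). Upb1, Fcor, Mcemp1, Lmo1, Stxbp6, Kcne3 and Tnip3 gave 26 to 89 UMIs in Cd209a+ DCs and 0 to 3 in Xcr1+ DCs. The cell cycle genes Ube2c and Hist1h2ae (6 female and 5 male cells) gave 27 and 34 UMIs against 0, at least 2.93-fold and 3.69-fold. Kcne3, Tnip3, Stxbp6 and Ube2c lost their call against Xcr1+ DCs under 2 or more settings.

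Mcemp1 and Fcor lie close to Cd209a, which was noticed after their values were seen, and the neighbourhood was then read in full. Cd209a (ENSMUSG00000031494) occupies chr8:3743397-3748984 on the minus strand of GRCm38. Of 24 genes with a UMI within 400 kb of its start, 8 outside the criteria were tested, 4 of them higher than in Xcr1+ DCs, 5 higher than in macrophages and 0 lower than in either. Mcemp1, a mast cell and myeloid membrane protein, starts 83.2 kb before Cd209a in genome order and stood at 123 and 148 CPM in Cd209a+ DCs, 0 and 0 in Xcr1+ DCs and 8.58 and 10.6 CPM in macrophages (log2 fold change over macrophages 3.99 ± 0.34, edgeR adjusted p = 1.11e-12). Fcor, a corepressor of the factor Foxo1, starts 76.6 kb away and stood at 85.9 and 101 CPM, 0 and 0, and 4.15 and 2.32 CPM (4.96 ± 0.45, adjusted p = 3.39e-12). Trappc5, a subunit of a vesicle-tethering complex at 72.7 kb, was higher than in both (1.83 ± 0.50 and 2.14 ± 0.27), as was Arhgef18, a guanine nucleotide exchange factor at 356.0 kb (39 UMIs against 1 in Xcr1+ DCs, ratio 12.7, 2.15 to 515, and 2.56 ± 0.41 over macrophages). Pet100, Stxbp2 and Xab2, at 118 to 128 kb on the same side, were not called. The windows of 240 bases that lie 250 to 11 bases before the RefSeq start of Cd209a and of its called neighbours Mcemp1 and Fcor, at chr8:3748995-3749234 (minus strand), chr8:3665512-3665751 (plus) and chr8:3672402-3672641 (minus), were taken from RefSeq on GRCm38.p6 and are shown, 5′ to 3′, because both neighbours were called higher in cells chosen for Cd209a. Capitals mark a match to ACCGGAAG, read on either strand and here as CTTCCGGT, an 8-base motif with the core bound by ETS factors, which was picked after the sequences had been seen.
Cd209a: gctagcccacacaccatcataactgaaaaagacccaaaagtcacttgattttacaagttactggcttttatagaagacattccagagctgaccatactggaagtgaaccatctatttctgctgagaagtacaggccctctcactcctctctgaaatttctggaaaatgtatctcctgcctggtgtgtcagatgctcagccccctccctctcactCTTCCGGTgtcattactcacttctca
Mcemp1: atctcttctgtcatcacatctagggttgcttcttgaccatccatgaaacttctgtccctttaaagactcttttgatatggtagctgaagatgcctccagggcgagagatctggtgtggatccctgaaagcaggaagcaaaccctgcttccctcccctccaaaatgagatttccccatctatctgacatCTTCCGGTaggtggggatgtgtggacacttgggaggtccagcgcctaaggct
Fcor: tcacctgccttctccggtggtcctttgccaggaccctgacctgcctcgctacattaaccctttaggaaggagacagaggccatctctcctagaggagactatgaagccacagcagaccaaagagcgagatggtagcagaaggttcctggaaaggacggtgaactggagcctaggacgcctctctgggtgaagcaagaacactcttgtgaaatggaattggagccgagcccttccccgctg
The motif lies 36 to 29 bases before the start of Cd209a and 62 to 55 bases before that of Mcemp1, and the Fcor window has no match. Windows of the other called neighbours, Trappc5 and Arhgef18, are not given here. It was found in 490 of 32534 windows of the same length (1.51%). The ETS-IRF composite element, the interferon-stimulated response element and TGGGAA, searched on both strands, were in 2.22%, 2.87% and 20.9% of all windows and in none of these 3.

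The other Cd209 lectins of this locus differed. Cd209d, 129.6 kb beyond Cd209a, gave 90 and 31 UMIs in Cd209a+ DCs, 241.5 and 121 CPM, against 14.9 and 32.4 CPM in macrophages (log2 fold change 3.20 ± 0.49, edgeR adjusted p = 2.00e-03). It gave 0 UMIs in Xcr1+ DCs, where the difference missed the threshold (adjusted p = 5.75e-02), and 80.0% of its female UMIs lay in 5 of 17 cells with a UMI. Cd209c gave 8 and 6 UMIs, Cd209e 3 and 2, and Cd209b 1 and 4, too few to test. Cd209f and Cd209g gave 0 UMIs in Cd209a+ DCs and 100 and 69 UMIs in the female and 282 and 173 in the male macrophages. These genes are close relatives, so the separate counts of each are uncertain.

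**Figure D4:**
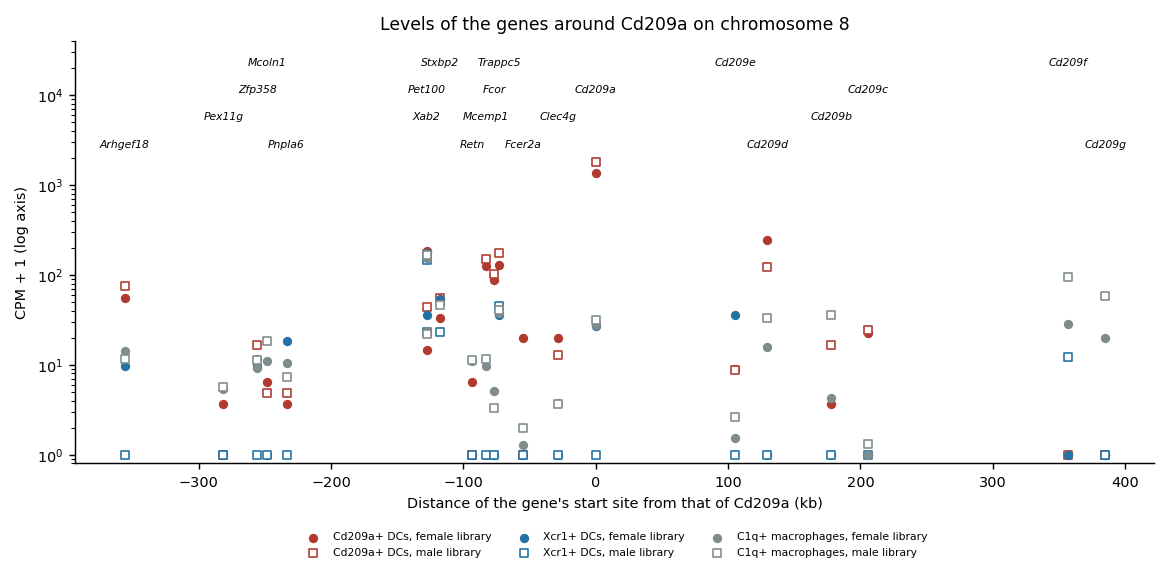
Level of the genes around Cd209a, predicted Gm genes left out, in each class and library, as CPM + 1 on a log axis, against the distance of each start site from that of Cd209a in kb. Mcemp1, Fcor and Trappc5 stand 72.7 to 83.2 kb away with Cd209a+ DCs on top, and Cd209f and Cd209g, at 357 and 385 kb, have UMIs in macrophages and none in Cd209a+ DCs.

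Cd209a+ DCs varied among themselves. S100a4 ran from 0 to 173 UMIs in female and from 0 to 38 in male cells with a median of 9 in each library, and Mgl2 had a UMI in 36 of 80 female and 32 of 52 male cells. Plac8, a gene of monocytes and plasmacytoid DCs, was in 25 and 13 cells, and 5 cells held 53.4% and 75.2% of its UMIs. Cells with mitosis transcripts were few: at least 3 UMIs of 16 mitosis genes were found in 5 of 80 female and 3 of 52 male Cd209a+ DCs (6.25% and 5.77%), in 2 of 18 and 0 of 14 Xcr1+ DCs, and in 1.43% and 1.18% of macrophages. Ube2c, which drives the exit from mitosis, gave 15 and 12 UMIs, from 5 and 3 cells, and was higher than in macrophages (log2 fold change 3.28 ± 0.52, edgeR adjusted p = 1.84e-06), as was Top2a (1.64 ± 0.44), though not with DESeq2 (adjusted p = 0.168). None of 7 S phase genes was called in either comparison.

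**Figure D5:**
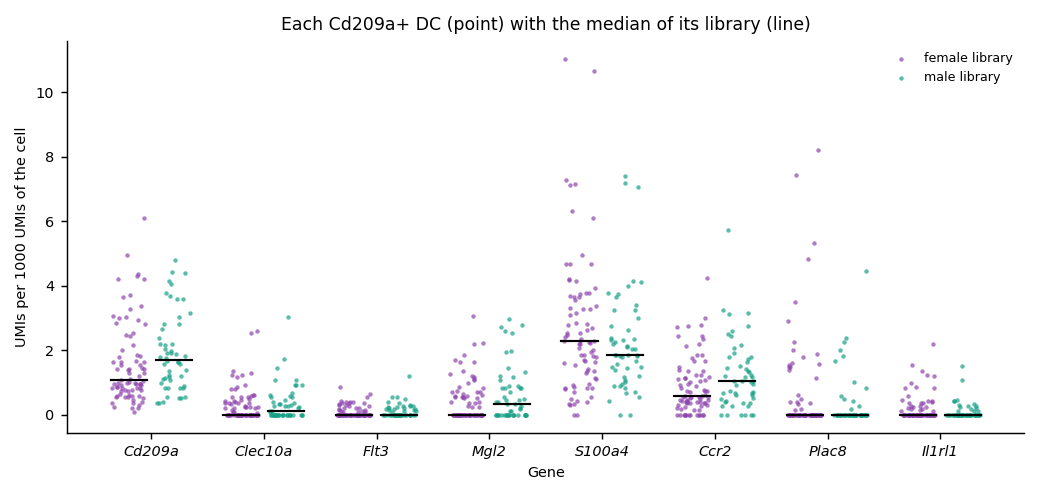
UMIs per 1000 UMIs of the cell for 8 genes, 1 point for each of the 80 female and 52 male Cd209a+ DCs, with the median of each library as a line. Cd209a was required by the criteria, S100a4 is spread over nearly all cells, and Clec10a, Flt3, Mgl2, Plac8 and Il1rl1 are at 0 in many.

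A few female cells carried transcripts of other leukocytes. A single female cell with 6793 UMIs held 34 of the 35 Siglech UMIs and all 23 Cox6a2 UMIs, both markers of plasmacytoid DCs, together with 25 Tcf4 and 25 Irf8 UMIs, 3 of Cd209a and 0 of Mgl2 and S100a4. Its sum over 5 plasmacytoid markers was 72, the next female cell had 2 and the highest male cell 1, and 73 female and 51 male cells had 0. A further female cell, with 14775 UMIs and 3607 genes, held 118 of 127 Gzma and 189 of 237 Ccl5 UMIs, 22 of Nkg7, 29 of Ly6c2, 14 of Cd209a and 0 of Mgl2, and its doublet score was not among those left out. Another, with 15657 UMIs, held 42 of 46 Cxcl10 UMIs with 18 of Ifit1, 8 of Rsad2 and 5 of Isg15, genes induced by interferon, and 11 of Mgl2. Cells with at least 2 UMIs of plasmacytoid or at least 3 of NK markers were called marked. The cell with 14775 UMIs was in both sets, and without the plasmacytoid-marked cells female Ccl5 fell from 237 to 48 UMIs. Without the 2 plasmacytoid-marked cells, 149 genes were higher and 122 lower than in Xcr1+ DCs, and without the 3 NK-marked cells 160 and 121.

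The female and male Cd209a+ DCs were compared last. With 1 library per sex this is a comparison of libraries without a test. Among 1529 genes with at least 50 UMIs, 26 (1.7%) were 2-fold or more higher in the female and 12 (0.785%) in the male cells. Sex-linked genes such as Xist, predicted genes, Rik clones, mitochondrial genes and immunoglobulin segments were left out of the ranking that follows, and its 5 highest female ratios were concentrated in few cells. Gzma stood at 341 and 7.80 CPM, a ratio of 43.7 (exact 95% interval 11.9 to 365), with 96.1% of its female UMIs in 5 cells, Ccl5 at 636 and 27.3 CPM (23.3, 11.1 to 58.6), with 92.4%, the fatty acid binding protein Fabp5 at 164 and 11.7 CPM (14.0, 4.57 to 69.7), with 96.7%, Ly6c2 at 183 and 23.4 CPM (7.80, 3.40 to 22.0), with 82.4%, and Irf8 at 126 and 23.4 CPM (5.39, 2.30 to 15.4), with 91.5%. Gzma is itself one of 6 NK cell markers, and 1 female cell held 161 of the 194 UMIs that these gave in female Cd209a+ DCs. The 5 NK cell markers other than Gzma summed to 180 CPM (67 UMIs) in female and 31.2 CPM (8 UMIs) in male Cd209a+ DCs, and to 454 and 188 CPM in macrophages of the same libraries. Without the 3 NK-marked cells the ratio of Gzma was 2.94 and that of Ccl5 2.52, while those of Fabp5, Ly6c2 and Irf8 were 14.9, 4.78 and 5.63. The cell with the most plasmacytoid transcripts, which is not the cell with most NK transcripts, held 25 of the 47 female Irf8 UMIs. Without the 2 plasmacytoid-marked cells 16 genes were higher in the female cells, and without the 3 NK-marked cells 19. The cell with 14775 UMIs is left out in both settings, so these counts do not separate the 2 kinds of marked cell.

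In the 5 genes with the lowest ratios, 5 cells held 26.7% to 61.4% of the male UMIs. The heat shock gene Hspa1b stood at 21.5 and 172 CPM, a female to male ratio of 0.125 (0.0509 to 0.269), from 7 female and 16 male cells. Ank, a transporter of pyrophosphate, stood at 61.7 and 159.9 CPM (0.386, 0.221 to 0.658), the mitochondrial synthetase Lars2 at 102 and 234 CPM (0.436, 0.282 to 0.665), Sdc3 at 80.5 and 183 CPM (0.439, 0.268 to 0.709) and Gngt2 at 69.8 and 152 CPM (0.459, 0.268 to 0.773). In female and male macrophages Lars2 stood at 172 and 305 CPM, Sdc3 at 215.5 and 322 CPM, Hspa1b at 40.7 and 59.6 CPM and Ank at 34.0 and 37.4 CPM, all lower in the female library, and Gngt2 at 349.9 and 324 CPM, in the opposite order. Mgl2 stood at 370.3 CPM in female and 667 CPM in male Cd209a+ DCs, and at 174 and 408 CPM in female and male macrophages.

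Some genes share reads with others. Irf8, Itgam, S100a4, Stxbp6, Ank, Mertk, Zeb2 and Itga6 overlap another annotated gene on the same strand, and Clec4a, Fcgr, Ifitm, Rtl8 and Hspa1 genes have near relatives, so the separate counts of these genes are uncertain.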

How the data were processed

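Leukocytes that were alive and CD45+ were sorted from adrenal glands of 7-week-old C57BL/6 mice and run as 1 female and 1 male library with 10x 3′ chemistry. The authors deposited filtered matrices of UMI counts, whole numbers per gene and barcode. The submitters' notes name Cell Ranger 4.0.0, DropletUtils 1.4.3 and the build mm10. Barcodes with at least 200 genes and at most 15% mitochondrial UMIs were kept (3817 of 3963 female and 2502 of 2685 male), since the study's stated ceiling, read as 1.2%, would leave 327 female and 359 male barcodes with 24 and 29 of the Cd209a+ DCs. The paper reports far more cells left after all its filters, so the scale of its ceiling could not be settled.

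Doublets were scored with Scrublet in scanpy 1.11.5. Its own threshold marked 1 and 8 barcodes, so as an alternative the 126 and 58 highest scores were left out, at 0.8% per 1000 barcodes. UMIs were summed per library and class (6 sums), and 4804 genes that passed filterByExpr were fitted with edgeR 4.0.16 (R 4.3.3): TMM factors, library as a block, the robust quasi-likelihood test with 2 residual degrees of freedom, and Benjamini-Hochberg adjustment. A call needed an adjusted p under 0.05 and a fold of 2. Class totals gave CPM. Intervals (95%; Clopper-Pearson, Newcombe, Poisson, conditional binomial) cover counting error only, and PCR or capture error is outside them. A fold against 0 UMIs used a floor of 3 counts over both libraries. Gene positions came from GENCODE M21, which matched 32158 of 32285 gene identifiers. The fit was tested on simulated data.

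The cells, the 37 gene lists and the tests were chosen with earlier results of these data known. Named genes were the 12 highest and 10 lowest against Xcr1+ DCs, the 10 highest and 8 lowest against macrophages (at least 50 UMIs and 2-fold in each library), the 12 largest above both, and the 5 highest and 5 lowest between libraries, besides list examples. Other list genes were named because they were called (some are not reported here), and the Cd209a neighbours and the cells with transcripts of other leukocytes after their values were seen. Alternatives were a mitochondrial ceiling of 5% or 10%, at least 3 UMIs of the defining trio, C1q at 0, no limit on Retnla, cells thinned to 1000 UMIs, RLE factors, no filter, no library block, DESeq2 1.42.0, CPM + 50, at least 100 UMIs, and each library left out. Leaving out the plasmacytoid-marked cells (at least 2 UMIs of those markers) or the NK-marked cells (at least 3 UMIs) was added later.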

Additional observations from a re-analysis of the deposited data

Results flagged for a closer look

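In 5 genes the Cd209a+ DCs lay on opposite sides of another class in the female and the male library, with intervals of the CPM ratio (95%, counting error only) that leave out equality in both. The difference between the libraries was not tested, since each sex has 1 library. Tcf4, a factor of plasmacytoid DCs, had a ratio to C1q+ macrophages of 1.75 (1.38 to 2.20) in the female and 0.602 (0.386 to 0.9) in the male library, and a single female cell held 25 of its 88 female UMIs. Ccl5, a chemokine of T and NK cells, had a ratio to Xcr1+ DCs of 4.56 (2.75 to 8.11) and 0.224 (0.0736 to 0.632), with 189 of 237 female UMIs in a single cell. Cxcl10, an interferon-induced chemokine, had a ratio to macrophages of 9.11 (5.96 to 13.9) and 0 (0 to 0.802), with 42 of 46 female UMIs in a single cell. Fabp5, a fatty acid binding protein, had a ratio to macrophages of 4.42 (3.21 to 6.02) and 0.254 (0.0518 to 0.759), with 96.7% of its female UMIs in 5 cells. Cd9, a tetraspanin, had a ratio to macrophages of 0.736 (0.577 to 0.927) and 1.60 (1.23 to 2.05), and was spread over 41 female and 29 male cells. The cell with most NK transcripts was in both the plasmacytoid-marked and the NK-marked set. Without the 2 plasmacytoid-marked cells the female ratio of Tcf4 was 1.06 (50 UMIs left) and that of Ccl5 0.981. Without the 3 NK-marked cells these were 1.55 (73 UMIs left) and 0.493, and the Ccl5 ratio then lay on the side of the male ratio. In both settings the female ratios of Cxcl10 and Fabp5 were at 4.61 or more.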

How the results depend on the processing

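Thinning to 1000 UMIs lowered the female share to 0.966% and moved the difference to -0.848 points, and C1q at 0 lowered the male share to 1.36%. Calls against Xcr1+ DCs fell to 40 higher and 25 lower in thinned sums, where 1042 genes could be tested, and to 74 and 78 with DESeq2. Calls against macrophages fell to 66 and 195 in thinned sums, to 317 lower with DESeq2, and to 258 higher with C1q at 0, where 3518 genes were tested. Without the replicate block for the library, 113 and 93 genes were called against Xcr1+ DCs and 375 and 546 against macrophages. Genes 2-fold higher in the female library numbered 8 at 100 UMIs or more, 10 with CPM + 50, 3 in thinned sums and 16 without the plasmacytoid-marked cells, and those higher in the male library 1, 1 and 0 in the first 3 settings, 19 with at least 3 UMIs of the trio and 26 with no limit on Retnla. The cause of these shifts was not tested. Fewer genes entered the fit in thinned sums and with C1q at 0, while DESeq2 was run on the same 4804 genes. The share difference between libraries, 0.0176 points, also took the other sign at mitochondrial ceilings of 5% and 10%, with at least 3 UMIs of the trio, with no limit on Retnla and without plasmacytoid- or NK-marked cells (-0.178 to -0.0348 points), each with an interval that held 0, unlike that after thinning. No called difference named in the text changed direction when both libraries were fitted. In the male library alone, Kit and Lyst, called higher than in macrophages, had log2 ratios of CPM + 10 below 0 (-0.179 and -0.139). Of named fold changes, 706 values kept their side of the threshold, 27 lost it and 104 moved, all 104 when a library was left out, which leaves no test. Pltp and Cxcl9 lost their call against Xcr1+ DCs with no library block (adjusted p = 8.39e-02 and 0.115), Psmb8, Ifi27l2a and Fcgr3 with C1q at 0, and Col14a1, Mertk, Itga9 and Itga6 against macrophages with DESeq2 (adjusted p = 0.415 to 0.440). Mgl2 fell under 2-fold over macrophages with C1q at 0. Of 72 list genes called against Xcr1+ DCs, 16 lost the call and 5 had no adjusted p with DESeq2, and of 139 called against macrophages 34 lost it. Among these and the genes named at the Cd209a locus or above both classes, Atf3, Cebpa, Lgmn, Lmo1 and Trappc5 also lost their call against Xcr1+ DCs with DESeq2, and Fcor, Arhgef18, Kcne3, Stxbp6, Timd4, Zfp366, Ube2c and Hist1h2ae had no adjusted p there. The 32 Xcr1+ DCs and their 204948 UMIs limit the first comparison, and the residual degrees of freedom limit both.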

Other observations

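Other gene groups of the Cd209a+ DCs were read in the same fit. Of 20 cytokine and growth factor receptors, 4 were higher than in Xcr1+ DCs and 0 lower: Il1rl1, Csf1r, the macrophage growth factor receptor (62 UMIs against 1, ratio 20.2, 3.49 to 811), Tgfbr1 (28 against 0, at least 3.04-fold) and Il6ra (log2 fold change 2.17 ± 0.64, edgeR adjusted p = 2.78e-02). With DESeq2, Il1rl1 alone of these 4 kept its call, and the adjusted p was 6.33e-02 for Csf1r and Tgfbr1 and 0.144 for Il6ra. Against macrophages 3 were higher, Il1rl1, Il17ra (1.33 ± 0.41) and Kit (8 UMIs, all female, 3.35 ± 0.97), and 7 lower. The male cells had 0 Kit UMIs against 1.32 CPM in male macrophages, and with DESeq2 neither Kit (adjusted p = 6.02e-02) nor Il17ra (0.282) was called. Of 9 chemokine and lipid-guided receptors, Ccr1 was higher than in Xcr1+ DCs (34 UMIs against 0, at least 3.69-fold) and Cxcr3 lower (-3.23 ± 0.73). Of 15 lipid and cholesterol genes, the lysosomal lipase Lipa was lower than in both classes (-1.65 ± 0.40 and -2.62 ± 0.26). Pltp was higher than in both (its call over macrophages was lost in 7 of 13 settings), and against macrophages 8 genes of this list were lower, among them Lpl (-3.90 ± 0.27) and Plin2 (-1.03 ± 0.25, under 2-fold in 3 settings).

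Of 10 integrins, Itgam was the only gene called against Xcr1+ DCs, and against macrophages Itgam and Itgb7 were higher and Itga6, Itgav and Itgb5 lower. Of 16 immediate early and heat shock genes, 4 were higher than in Xcr1+ DCs and 0 lower, with Zfp36 at 1.45 ± 0.26 and Atf3 at 2.51 ± 0.64. The 5 adrenal cortex genes, among them the steroid enzyme Cyp11a1, summed to 42.9 and 19.5 CPM in Cd209a+ DCs and to 211 and 192 CPM in macrophages, and 4 of the 4 tested were lower than in macrophages. Of these, Hsd3b1 and Cyp21a1 lost their call with DESeq2 (adjusted p = 6.09e-02 and 0.396). The T cell markers other than Cd3e summed to 26.8 and 7.80 CPM and 4 neutrophil markers to 24.2 and 23.4 CPM.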
